A study of Mus musculus with 2 samples.

Results

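The YAP, TAZ and TEAD pathway was examined through 10 genes chosen by symbol: the co-activators Yap1 and Wwtr1 (TAZ), the DNA-binding factors Tead1, Tead2 and Tead4, the kinases Lats1 and Lats2, and the target genes Ctgf, Cyr61 and Amotl2. They were 10 of 23370 genes measured and were read by 12 of 33793 probe sets. All 10 lay at or above the low-signal limit used below. The arrays were Affymetrix Mouse Gene 2.0 ST arrays hybridised with total RNA of ES-D3, an established mouse embryonic stem cell line of strain 129S2/SvPas. The 2 groups were cells grown in a microfluidic chamber (1 array) and cells grown on a 6-well plate (1 array). The medium of both groups held LIF (leukaemia inhibitory factor, 1000 U) and 15% serum. RNA was taken 3 days after seeding at a density of 20000 cells per square centimetre. The comparison asked how gene expression differs in chambers with minimal perfusion. The labels name 1 line, no feeder cells and no replicate culture, so the differences below carry no test and describe this pair of arrays.

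YAP and TAZ are the transcriptional co-activators held in check by the Hippo pathway. The kinases STK3 and STK4, with the adaptor SAV1, activate LATS1 and LATS2 together with MOB1; the LATS kinases phosphorylate YAP and TAZ, which are then kept in the cytoplasm or degraded. Cells that spread on a stiff surface or bear tension in their actin skeleton keep more YAP and TAZ in the nucleus, where they bind TEAD factors on DNA. In the mouse embryo, TEAD4 with nuclear YAP drives trophectoderm fate in outer cells, and LATS activity keeps YAP out of the nucleus in inner cells. Much of this control acts on the proteins, which an RNA array does not measure.

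TEAD factors recognise the letters GGAATG, or CATTCC on the other strand. These letters were searched on both strands in the 250 bases before each annotated gene start (RefSeq, GRCm38.p6). Entries were available for 7 of the 10 members: Yap1, Wwtr1, Tead2, Lats1, Lats2, Cyr61 and Amotl2. The letters were present for 4 of them, Yap1, Wwtr1, Cyr61 and Amotl2, and 12.6% of all 32851 windows of the same length hold them. The AP-1 letters TGANTCA were in none of the 7, against 6.75% of all windows. The member counts are per gene over all its windows, of which Wwtr1 and Lats2 have a pair each, whereas the percentages are per window. A match describes the sequence and not a bound site. The whole window is shown for Cyr61, a classical target, and for Wwtr1, since both windows lie outside the annotated gene. For Yap1 and Amotl2 the 30 bases around the match are shown. The Yap1 window overlaps the annotated gene in part, and the Amotl2 window (102717554 to 102717803) lies wholly inside it. Capitals mark the TEAD letters, and each sequence reads 5′ to 3′ along the gene's own strand.
Cyr61, chr3:145649986-145650235, minus strand: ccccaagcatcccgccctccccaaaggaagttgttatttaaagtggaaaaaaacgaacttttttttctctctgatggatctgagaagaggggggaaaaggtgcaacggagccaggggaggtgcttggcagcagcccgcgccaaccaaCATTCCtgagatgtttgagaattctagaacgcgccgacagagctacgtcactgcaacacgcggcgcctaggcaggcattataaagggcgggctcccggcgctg
Wwtr1, chr3:57575911-57576160, minus strand: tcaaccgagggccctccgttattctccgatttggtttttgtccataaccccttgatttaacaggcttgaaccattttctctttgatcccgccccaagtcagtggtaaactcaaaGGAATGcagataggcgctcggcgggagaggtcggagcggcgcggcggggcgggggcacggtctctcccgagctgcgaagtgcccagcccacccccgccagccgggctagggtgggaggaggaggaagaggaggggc
Yap1, chr9:8004720-8004749, minus strand: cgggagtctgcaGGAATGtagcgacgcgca
Amotl2, chr9:102717727-102717756, plus strand: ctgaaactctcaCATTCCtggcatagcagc
The first base of the match lies 103 bases before the start of Cyr61 and 141 before that of Yap1. For Amotl2 it lies 65 bases before an annotated start that is itself inside the gene. Wwtr1 has overlapping entries for a pair of starts, and the same match lies 136 bases before the start whose window is shown and 170 before the other.

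Values below are log2 RMA values, in which each array was corrected for background and brought to the same distribution as the other, and each difference is the chamber value minus the plate value. The low-signal limit was the 20th percentile over named probe sets, 5.17 on the chamber array and 5.16 on the plate array, and 19180 genes passed it on at least 1 array. Their median difference was -0.01, and the middle 95% lay between -0.61 and 0.58. Of these genes 46.9% lay above 0 and 52.3% below. For 781 genes read by a pair of probe sets, the differences of the pair scattered around their gene mean with a standard deviation of 0.21, called the within-gene spread below. It measures scatter within these arrays and not between cultures. To set each member beside genes of like signal, the genes were ranked by mean level and divided into 4 equal groups of 4795, called level groups. The cells carried the markers of pluripotent stem cells on both arrays. All 8 markers passed the limit, with values of 8.10 to 12.81 in the chamber and 7.74 to 13.08 on the plate. Because bulk RNA was measured, fewer cells of a type and less RNA per cell cannot be told apart.

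The members differed in both directions, and the TEAD factors were split between them. Tead4 and Lats1 were higher in the chamber and so was Ctgf, whereas Tead2 and Wwtr1 were lower. Yap1, Tead1, Lats2, Cyr61 and Amotl2 all lay within 0.21 of 0. The median difference was 0.05, with 6 members above 0 and 4 below. Only Tead4 was at least 1.5-fold apart, and 5.22% of all 19180 genes were that far apart, so 1 in 10 genes is no result about the pathway. None of the members was 2-fold apart, as 0.787% of all genes were. At a difference of at least 0.32 log2 units, 4 members were apart (Tead4, Lats1, Tead2 and Wwtr1), against 18.9% of all genes. That share pools all level groups, and these 4 lie in the third and highest, where differences spread more widely. In the third group 32.9% of genes were at least as far from 0 as Csnk1e (-0.32). In the highest 28.1% were at least as far as Slmap (0.32). The count of 4 is therefore no result about the pathway either.

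**Figure D1:**
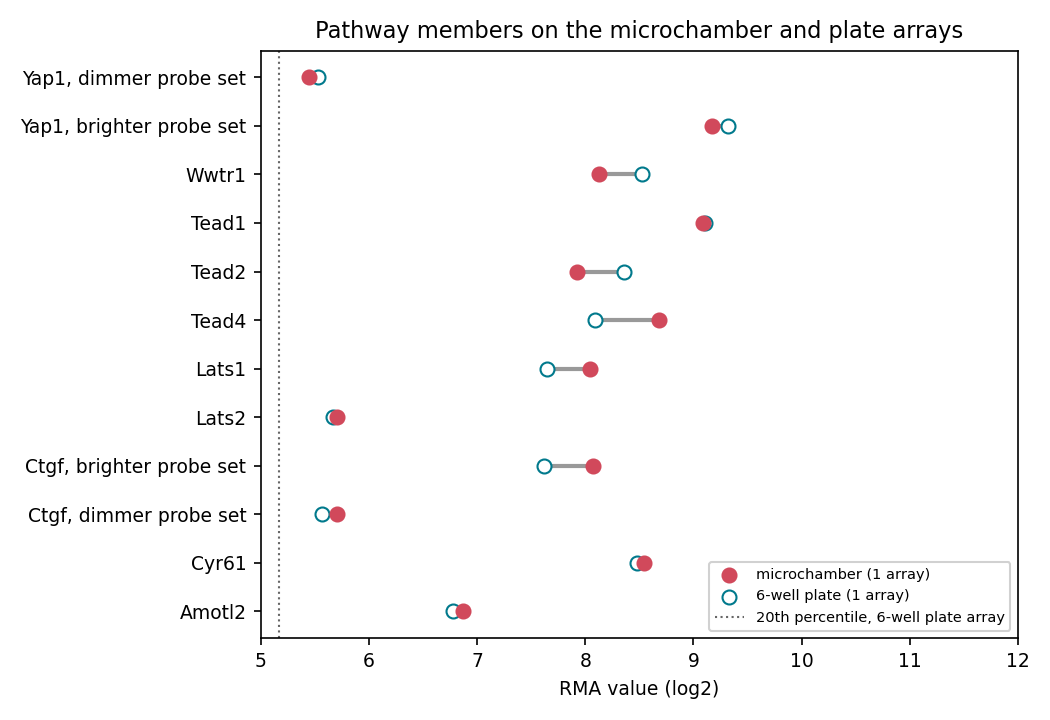
Log2 RMA values of the 12 probe sets of the members (x axis) in the microchamber (filled, 1 array) and on the 6-well plate (open, 1 array), joined by a line; the dotted line is the 20th percentile of 5.16 on the plate array. Tead4, Lats1 and the brighter Ctgf probe set lie to the right in the chamber, Tead2 and Wwtr1 to the left, and the dimmer Yap1 and Ctgf probe sets and Lats2 lie close to the dotted line.

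Among the co-activators, the Wwtr1 transcript differed more than that of Yap1. Wwtr1, on chromosome 3 (57455644 to 57575910, GRCm38), had 8.13 in the chamber, against 8.53 on the plate, a difference of -0.40 or 1.32-fold lower. Of the 4795 genes in its level group, 22.0% were at least as far apart in either direction. Yap1, on chromosome 9 (7931999 to 8004638), had 7.31 in the chamber and 7.42 on the plate as the mean of its probe sets, a difference of -0.12, and 70.8% of its level group were at least as far apart. Both co-activators therefore lay on the low side in the chamber, Yap1 by less than the within-gene spread. The ratio of Wwtr1 to Yap1 differed by -0.29 on the log2 scale.

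The probe sets of Yap1 were of very unequal brightness, and neither lay at the mean level that set its level group. The brighter one had 9.17 in the chamber and 9.32 on the plate, a difference of -0.15. The dimmer one had 5.44 in the chamber and 5.53 on the plate, a difference of -0.09, and was dimmer than most named probe sets of both arrays. Yap1 lies on the minus strand. Of the 20 genes nearest to the brighter probe set in the array's numbering, all on chromosome 9, 19 lie on the minus strand, whereas all 20 nearest to the dimmer one lie on the plus strand of that chromosome. What the dimmer probe set hybridises to was not tested.

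The TEAD factors, which carry YAP and TAZ on DNA, differed in opposite directions. Tead4, on chromosome 6 (128227143 to 128300813), had 8.68 in the chamber, against 8.09 on the plate. This difference of 0.59 was the furthest from 0 of any member and only just past the 1.5-fold line of 0.58. In its level group 8.09% of genes were at least as far apart, and 10.6% when 10 equal groups were used. Tead2, on chromosome 7 (45215792 to 45233468), had 7.93 in the chamber and 8.36 on the plate. It is known as a TEAD gene active from the start of embryonic transcription in the mouse, and it was 1.34-fold lower (-0.43), with 19.6% of its level group at least as far apart. Tead1, a broadly expressed factor on chromosome 7 (112679356 to 112906784), had 9.09 in the chamber and 9.11 on the plate, a difference of -0.02.

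The ratio of Tead4 to Tead2 was thus 2.02-fold higher in the chamber (1.01 on the log2 scale), a value that a shift of a whole array cannot alter. The ratio of Tead4 to Tead1 was 1.52-fold higher (0.61). These pairs were chosen after their values were seen. Tead4 and Tead2 had the highest and lowest differences of the members, so no other pair of members is further apart. How often genes of like level form such pairs was not computed. Tead3, the remaining family member and outside the 10 genes, had 6.39 in the chamber and 6.23 on the plate, a difference of 0.16.

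**Figure D2:**
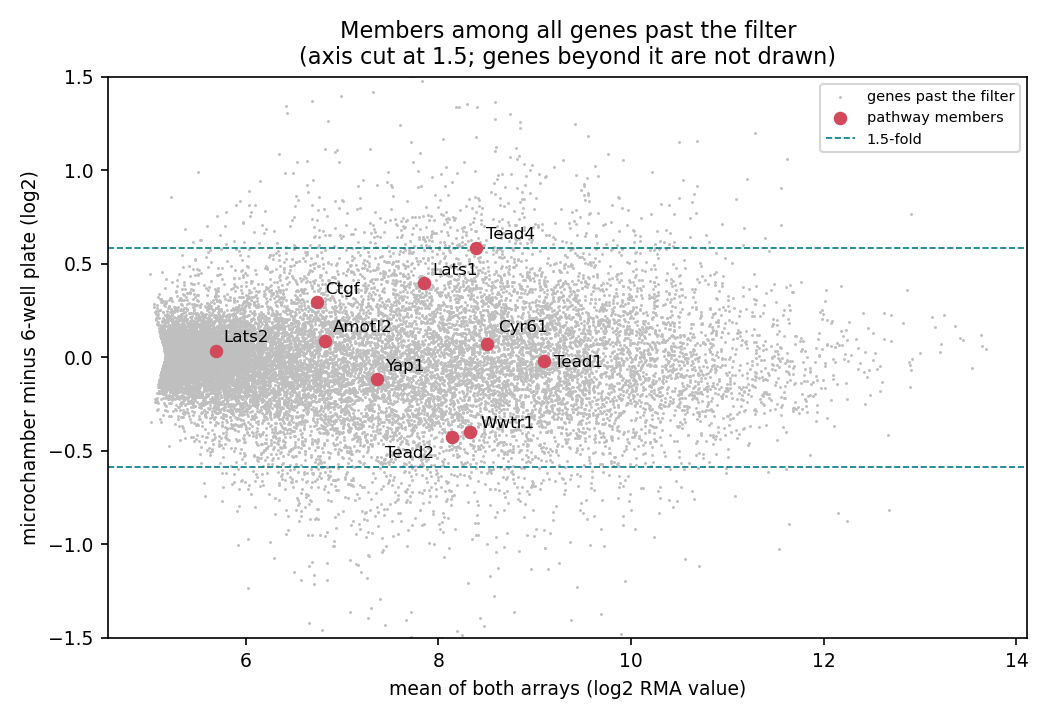
Difference, microchamber minus 6-well plate (y axis, log2), against the mean of both arrays (x axis, log2 RMA value) for genes past the low-signal limit (grey; 36 genes further than 1.5 from 0 are not drawn) and the 10 members (red, labelled). Dashed lines mark 1.5-fold; Tead4 sits on the upper line at 0.59, while the other members lie between -0.43 and 0.40 inside the spread of genes of like level.

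The LATS kinases, which phosphorylate YAP and TAZ, differed unequally. Lats1, on chromosome 10 (7681200 to 7716461), had 8.05 in the chamber and 7.65 on the plate, which is 1.32-fold higher (0.40), and 22.9% of its level group were at least as far apart. Lats2, on chromosome 14 (57689662 to 57746212), is also a YAP target and had 5.71 in the chamber and 5.67 on the plate, a difference of 0.04. Both Lats2 values were below those of most named probe sets, where differences are compressed. The standard deviation of differences was 0.13 in the lowest level group, 0.24 in the second, which holds Lats2, and 0.36 in the third, which holds Lats1. The value of Lats2 therefore does not show unchanged expression.

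Of the target genes, only Ctgf lay beyond the within-gene spread. Ctgf (current symbol Ccn2) encodes a secreted matrix-associated protein and lies on chromosome 10 (24595442 to 24598683). The mean of its probe sets was 6.89 in the chamber and 6.59 on the plate, a difference of 0.30 or 1.23-fold higher. In the level group set by that mean, 35.9% of genes were at least as far apart, but neither probe set lies at that level. The brighter probe set of Ctgf alone had 8.07 in the chamber, against 7.61 on the plate, which is 1.37-fold higher (0.46). The dimmer probe set had 5.70 in the chamber and 5.57 on the plate (0.14), again dimmer than most named probe sets. As for Yap1, the numbering separates them, since all 20 genes nearest to the brighter one lie on the plus strand of chromosome 10 and all 20 nearest to the dimmer one on its minus strand. The size of the Ctgf difference therefore depends on whether the dimmer probe set is counted, and its direction does not.

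Cyr61 and Amotl2, whose windows hold the TEAD letters shown above, each differed by less than the within-gene spread. Cyr61 (current symbol Ccn1), a secreted relative of Ctgf on chromosome 3 (145646971 to 145649985), had 8.55 in the chamber and 8.47 on the plate, a difference of 0.07, and 80.7% of its level group were at least as far apart. Amotl2, an angiomotin that binds YAP at junctions and is itself a target, lies on chromosome 9 (102717091 to 102733418). It had 6.86 in the chamber and 6.78 on the plate, a difference of 0.09, and 77.1% of its level group were at least as far apart. Together with Lats2 all 4 targets among the members lay above 0, as did 46.9% of all genes. For 3 of the 4 the difference was less than 0.10, inside the within-gene spread, so their signs show no direction. The ratio of Ctgf to Cyr61 was 1.17-fold higher in the chamber with mean values (0.23) and differed by 0.38 with the brighter Ctgf probe set. Among the 4 other genes of this family of matrix proteins, the median difference was 0.09, with Wisp2 at 0.18 and Nov at 0.17.

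The wider pathway was read through 60 further genes with a probe set of their own, 59 of them past the limit. In the chamber 32 were higher, 26 were lower and 1 was equal, with a median difference of 0.04. At least 1.5-fold higher were 3 genes, which is 5.08% of 59, and none was 1.5-fold lower; over all genes 2.46% were higher and 2.76% lower by that much. The 3 were the kinase Stk38, the kinase Taok2 and Myof, a membrane-repair ferlin on the target list.

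Of the 7 kinases and adaptors next to LATS, 6 were higher in the chamber, with a median of 0.17. Over all genes past the limit 46.9% were higher. Sav1 (0.17), Mob1a (0.15), Stk38l and Stk4 lay within the within-gene spread of 0.21. Stk38, a relative of the LATS kinases that MOB1 also activates, had 9.43 in the chamber, against 8.72 on the plate, which is 1.64-fold higher, and 4.65% of its level group were at least as far apart. Mob1b, the LATS co-activator, had 8.30 in the chamber and 7.72 on the plate (0.58, or 1.49-fold higher), while Stk38l was at 0.19. The exception was Stk3 (MST2), which had 9.15 in the chamber and 9.56 on the plate, 1.33-fold lower, and its partner Stk4 (MST1) was at 0.06.

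Genes further upstream were mixed. Of 12 upstream activators 5 were higher and 7 lower in the chamber, with a median of -0.04. Taok2 and Map4k4, kinases that can activate this cascade, were 1.53-fold and 1.41-fold higher, Nf2 (merlin), which recruits LATS to the membrane, was at 0.29, and the phosphatase Ptpn14, which binds YAP, was at -0.39. Of 10 upstream inhibitors 5 were higher and 5 lower. Strn and Slmap, parts of the phosphatase complex that restrains STK3 and STK4, were at 0.45 and 0.32, whereas the LIM protein Jub (current symbol Ajuba), which restrains LATS, was at -0.34.

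Genes that act on phosphorylated YAP and TAZ differed in both directions. Of 10 genes of the YWHA anchoring proteins and of degradation 4 were higher and 6 lower, with a median of -0.08. The ubiquitin ligase subunit Btrc was at -0.38 and the casein kinase Csnk1e at -0.32, while the anchoring proteins Ywhah and Sfn were at 0.30 and 0.21. Of the TEAD cofactors, Vgll4, which competes with YAP for TEAD, had 5.88 in the chamber and 6.13 on the plate (-0.25). Vgll3 and Vgll2 were at 0.15 and -0.13, and Vgll1 lay below the limit on both arrays.

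The target list was drawn from genes known as recurrent YAP and TAZ targets in human cancer cells, and 17 of its genes other than the members had a probe set of their own. In the chamber 10 were higher, 6 lower and 1 equal, with a median difference of 0.06, against -0.01 over all genes. Myof had 9.33 in the chamber and 8.63 on the plate, 1.62-fold higher. Tgfb2, a growth factor, had 5.86 in the chamber and 5.37 on the plate, a difference of 0.48. Its values lie in the lowest level group, where 0.542% of genes were at least as far apart (1.51% when 10 equal groups were used), and its plate value is close to the limit of 5.16. The lower genes included the kinase Nuak2 at -0.47 and Ptpn14, which is also counted among the activators. Ankrd1 and Axl, often used as YAP readouts, were both at -0.18.

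**Figure D3:**
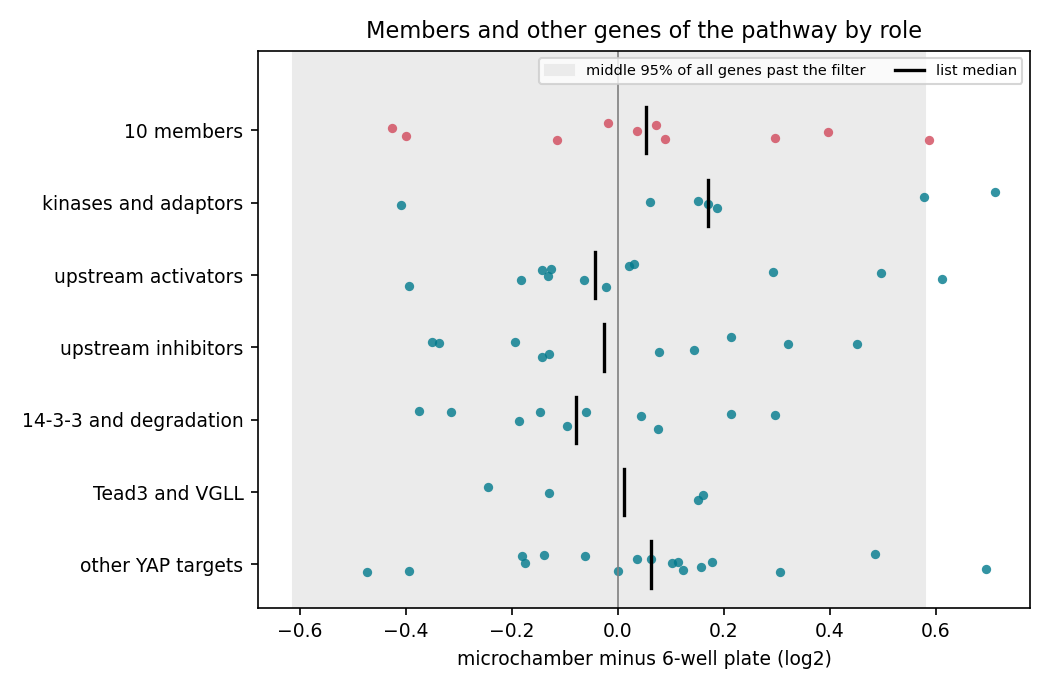
Difference, microchamber minus 6-well plate (x axis, log2), of each gene past the low-signal limit, by role (rows); black bars are list medians and the grey band is the middle 95% of all genes past the limit, -0.61 to 0.58. The members spread on both sides of 0 around a median of 0.05, the kinases and adaptors have the highest median at 0.17, and Tead4, Stk38, Taok2 and Myof lie right of the band while no gene lies left of it.

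Markers of other cell types also differed between the arrays. Of 12 fibroblast markers 9 passed the limit and 8 of these were lower in the chamber, with a median of -0.35. The summed linear level of all 12, including those below the limit, was 912 in the chamber and 1108 on the plate. Pdgfrb was at -0.49, Twist2 at -0.48 and Acta2 at -0.41, while S100a4 was at 0.40. Twist2 and S100a4 lie in the lowest level group, and the S100a4 plate value of 5.16 is close to the limit. Of the matrix genes, Postn, Lum and Dcn lay below the limit on both arrays, whereas the collagens Col1a1, Col1a2 and Col3a1 passed it, with differences of -0.14, -0.05 and -0.07. Of 9 trophectoderm markers 8 were lower, with a median of -0.31 and a summed level of 732 in the chamber and 894 on the plate. Krt18 was 1.55-fold lower and Tfap2c 1.54-fold lower, with Hand1 at -0.46 and Krt7 at -0.40. Krt8 and Gata3 were both at -0.03, and Cdx2 was at 0.006. Cdx2, Gata3 and Elf5 lay below the median of named probe sets on both arrays. Their values were 5.90, 6.09 and 5.21 in the chamber and 5.89, 6.12 and 5.34 on the plate. Krt8, with 7.66 and 7.69, was the brightest of the 9 and weighs most in the sum. Of 8 primitive endoderm markers 6 were higher, with a median of 0.13 and a summed level of 1599 in the chamber and 1418 on the plate. Lama1, by far the brightest with 9.70 and 9.51, weighs most in that sum. Dab2 was at 0.45, Pdgfra at 0.26, Lama1 at 0.19 and Gata6 at -0.17. Foxa2 was at 0.15, Sox17 at 0.11, Sox7 at 0.05 and Gata4 at -0.008. The pluripotent markers had 6 of 8 genes higher, with Pou5f1 at 0.36, Sox2 at 0.25 and Zfp42 at 0.22. Against that direction Tdgf1, a Nodal co-receptor, had 12.26 in the chamber and 13.08 on the plate, 1.76-fold lower, the furthest from 0 of all markers on these lists. Whether cells of these other types were present, and their part in the member differences, was not tested.

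**Figure D4:**
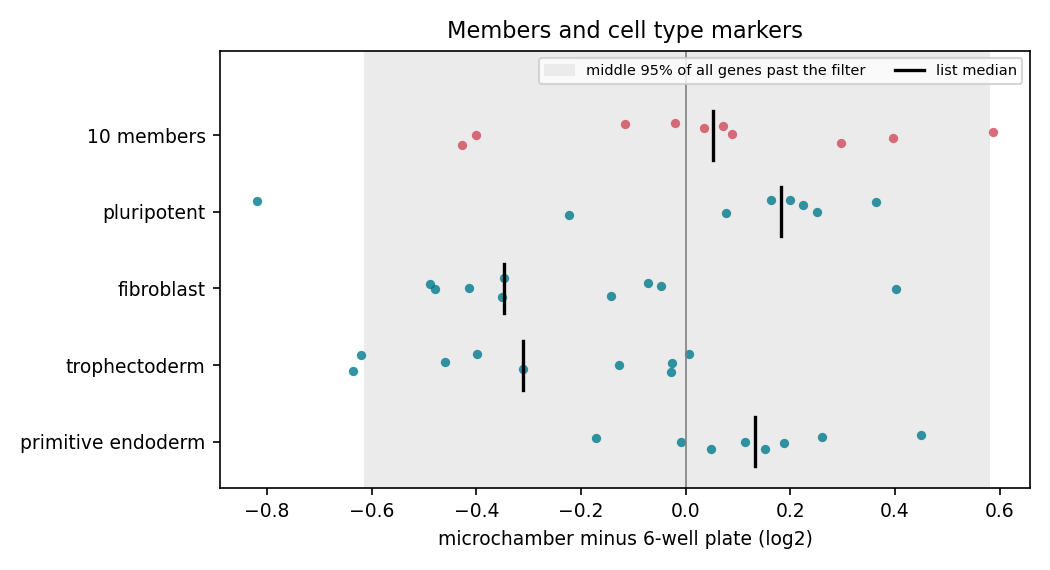
Difference, microchamber minus 6-well plate (x axis, log2), of the members and of each marker past the low-signal limit, by cell type (rows), with list medians (black bars) and the middle 95% of all genes (grey band). Fibroblast and trophectoderm medians lie at -0.35 and -0.31, those of the pluripotent and primitive endoderm markers at 0.18 and 0.13, with Tdgf1 far to the left at -0.82, and that of the members at 0.05.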

How the data were processed

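The deposited values are log2 values that the authors made from the scans by RMA (background correction, summary per probe set, normalization between arrays), keeping raw signals from the 20th to the 100th percentile, per the series design text and the file headers. Affymetrix Expression Console 1.4.1 and Transcriptome Analysis Console 3.0 are named, per the submitters' processing notes. The authors' deposited table also gives an absolute fold as a ratio without direction, and a log2 fold change of plate minus chamber. The differences given here have the opposite sign and the same size within 1e-06. RMA gives both arrays 1 distribution, which hides a shift shared by most genes.

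Probe sets with 1 symbol were averaged per gene (Python 3.11.15, pandas 2.3.3). A gene passed when it reached the 20th percentile on at least 1 array, and genes at least 1.5-fold apart were counted. The calculation was tested on simulated data with less noise than these arrays and planted shifts well past 1.5-fold. That test checked the code and says nothing about values near the 1.5-fold line. The alternatives included a loess trend (statsmodels 0.14.6, span 0.3). The members and 11 gene lists were chosen with earlier results of these data known. Named were all members, up to 4 genes furthest from 0 in each list, and 7 genes by name; 1 gene that this rule names is not reported here. The collagens, Sav1, Mob1a, Krt8, Gata3, Cdx2, Elf5, Gata4, Sox7, Sox17, Foxa2 and the genes below the limit were named after their values were seen. List symbols were matched through RefSeq synonyms, and 4 listed genes shared their probe sets with another gene.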

Additional observations from a re-analysis of the deposited data

How the results depend on the processing

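With 1 array per group, neither culture nor array variation could be measured, and no replicate could be left out. No paired analysis was possible because each group had 1 array and the labels give no replicate numbers. Differences were recomputed without the filter, with the filter moved to the median, after centring, after loess, from the brightest probe set, with shared probe sets and from the other deposited table. All 10 members kept their sign in each alternative that retained them, and the filter at the median removed Lats2. Only centring and loess altered every member, and the brightest probe set altered only Yap1 and Ctgf. The filter changes, shared probe sets and the other table left each retained member difference unchanged, so the kept signs there add no support. Ctgf ranged from 0.30 to 0.46 and Tead4 from 0.59 to 0.60. At 2-fold 0 members were apart and at 0.32 log2 units 4 were, against 1 at 1.5-fold. Over all genes 66 were higher and 85 lower at 2-fold, and 1644 higher and 1990 lower at 0.32 log2 units, against 472 and 529 at 1.5-fold. The median of the other targets was 0.00 with the filter at the median, against 0.06. The median of Tead3 and its cofactors was 0.16 with that filter, against 0.01. The median of the 4 relatives of Ctgf and Cyr61 was 0.18 with it, against 0.09.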

Other observations

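Some pathway genes are read on this array by probe sets that carry a second gene symbol, so they entered no comparison. The kinase Taok1, which can activate the Hippo cascade, shares a probe set with Ets1 that had 10.34 in the chamber and 9.81 on the plate (0.53), and another with Mnat1 (0.30). The stress gene Gadd45a, on the target list, shares its probe set with E230016M11Rik, which had 8.21 in the chamber and 8.79 on the plate (-0.58). The scaffold Rassf1 shares its probe set with Gm9917, at -0.37, and the casein kinase Csnk1d shares its probe set with Slc16a3, at 0.16. Which of the paired genes gave the signal cannot be told apart.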
